A study of Drosophila melanogaster with 3 samples.

Results

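The genes for the subunits of the 26S proteasome were taken as those whose symbol in the Release 6 annotation of Drosophila melanogaster starts with Prosalpha, Prosbeta, Rpn or Rpt followed by a digit, which gave 48 of 13986 protein-coding genes. They were 14 genes of the core particle (7 of the alpha ring and 7 of the beta ring), 18 genes of the regulatory particle (10 of its base and 8 of its lid) and 16 testis-type paralogs, whose symbols add R or T, with or without a further digit, to that of a subunit. The rule uses names alone, although it was set with earlier results of these data known. Chromatin of whole embryos, aged 0 to 24 hours and of mixed sex, underwent ChIP-seq against green fluorescent protein (GFP), that is, precipitation with an anti-GFP antibody and sequencing, in 3 biological replicates that form 1 group. All came from 1 transgenic line in which GFP was joined to the carboxyl end of a protein. Which protein carries the tag is given differently from field to field: CG45071 in the description, CG6854 in the strain name and antibody field, and CTPsyn (CTP synthase) as the targeted gene. There was no second condition, so the comparisons are between replicates, between groups of genes and with all protein-coding genes.

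The proteasome is the protease that degrades proteins marked with ubiquitin. Its core particle is a barrel of stacked rings, with alpha subunits at the gates and the proteolytic sites on beta subunits inside. The regulatory particle caps the barrel: its base holds the Rpt ATPases, which unfold substrates, and its lid holds Rpn11, which takes ubiquitin off them. In animals, proteasome genes are known targets of the Nrf family of transcription factors, of which cnc is the fly member, and many fly housekeeping promoters hold the DNA replication-related element (DRE). Several Drosophila subunits have a paralog used in the male germ line.

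The promoters of 4 subunit genes are shown first, because they hold the contrast described below between promoters with strong, weak and no entries. Each runs from 250 bp before to 50 bp from the outermost transcription start site (TSS), 5' to 3' on the gene's strand, read from the RefSeq copy of the dm6 (Release 6) genome. Capitals mark the DRE, searched as TATCGATA on both strands, in the first 3. They mark a match to TGANNNNGC, a loose form of the antioxidant response element bound by Nrf factors, in the fourth. This form was in 35.6% of all promoters, and the Rpn5 promoter held no match to the stricter TGACNNNGC. Rpn3 at chr2L:19051540-19051839, plus strand, had the best pooled rank of all members. Rpt5 at chr3R:23752626-23752925, plus strand, had its pooled summit 8 bp before the TSS. Prosbeta6 at chr3L:16610369-16610668, minus strand, had no promoter entry in any list. Rpn5 at chr3R:5789243-5789542, plus strand, stood just outside the optimal list.
Rpn3: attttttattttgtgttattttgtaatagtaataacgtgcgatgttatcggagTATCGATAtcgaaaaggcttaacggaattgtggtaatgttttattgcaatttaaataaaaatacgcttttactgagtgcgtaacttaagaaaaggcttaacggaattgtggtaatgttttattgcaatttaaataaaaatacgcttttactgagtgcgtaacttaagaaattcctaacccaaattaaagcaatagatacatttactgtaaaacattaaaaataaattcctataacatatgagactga
Rpt5: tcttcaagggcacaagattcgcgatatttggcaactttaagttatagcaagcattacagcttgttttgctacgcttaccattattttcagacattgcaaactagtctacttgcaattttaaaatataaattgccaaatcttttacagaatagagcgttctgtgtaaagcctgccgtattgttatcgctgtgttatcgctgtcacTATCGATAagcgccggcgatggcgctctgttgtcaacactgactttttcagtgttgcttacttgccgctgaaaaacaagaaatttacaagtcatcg
Prosbeta6: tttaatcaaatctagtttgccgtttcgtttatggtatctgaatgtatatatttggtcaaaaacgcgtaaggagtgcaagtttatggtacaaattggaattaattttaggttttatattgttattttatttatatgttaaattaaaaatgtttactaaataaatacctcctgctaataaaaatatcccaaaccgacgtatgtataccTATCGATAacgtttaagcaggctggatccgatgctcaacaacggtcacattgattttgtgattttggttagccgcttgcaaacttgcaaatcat
Rpn5: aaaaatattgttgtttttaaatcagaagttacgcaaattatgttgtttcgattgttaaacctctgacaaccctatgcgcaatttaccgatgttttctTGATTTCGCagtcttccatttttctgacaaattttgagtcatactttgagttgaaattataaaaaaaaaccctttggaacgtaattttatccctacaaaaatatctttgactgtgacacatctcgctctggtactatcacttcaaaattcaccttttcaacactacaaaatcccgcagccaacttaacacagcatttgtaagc
The DRE began 197 bp before the TSS in Rpn3, 46 bp before it in Rpt5 and 44 bp before it in Prosbeta6. The match in Rpn5 began 153 bp before the TSS. In the Rpn3 promoter a stretch of 82 bases, starting 187 bp before the TSS, recurred 78 bases further on with every letter alike. The next longest such repeat in a member's promoter was 16 bases, in Prosbeta2. The pooled summit of Rpn3, 68 bp before the TSS, lay in the second copy. So did its summits in replicates 1 and 3, at 33 and 41 bp before the TSS. In replicate 2 the summit was 8 bp past the TSS, outside the repeat. Reads from the repeat may match both copies. The part of the repeat in the rank and position of the Rpn3 entry was not tested.

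Few proteasome genes reached the authors' optimal list, while most core and regulatory genes had a weaker entry at the promoter. A promoter entry means a summit within 500 bp of any annotated TSS of the gene, and entries are ranked within their list by the authors' signal, with 1 the highest. The optimal list, which the authors derived from the replicate and pooled lists by the irreproducible discovery rate (IDR, which measures to what depth the ranked lists of replicates match), held 3545 entries, and these were the 3545 highest in signal of the pooled list. Only Rpn3 and Rpn13 had an optimal promoter entry, 2 of 48 members (4.17%), against 14.1% of all protein-coding genes. With a window of 250 bp this count was 1, without Rpn13. In the pooled list 22 members (45.8%) had one, against 51.2% of all protein-coding genes. Of the members with a pooled entry 2 of 22 were in the optimal list, against 27.5% of the genes with one. These differences were not tested, because genes are not replicates of a condition.

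The pooled list and each replicate list hold 30000 entries, which the submitters describe as peaks with background, so their lower ranks hold background as well as binding, and sequencing depth is unknown. In chromatin of whole embryos, an entry present in few cells and a weak entry present in many cannot be told apart. The replicate lists had a promoter entry at 18 members (37.5%) in replicate 1, 24 (50.0%) in replicate 2 and 21 (43.8%) in replicate 3. All protein-coding genes had one at 47.6% in replicate 1, 52.3% in replicate 2 and 48.8% in replicate 3. The mean over replicates was 43.8% ± 6.25 for the members and 49.6% ± 2.44 for all protein-coding genes (SD, n = 3), so the means differed by less than the members' spread, although the members were lower in each of the 3 lists. In all 3 lists at once there were 10 members (20.8%), against 33.8% of all genes, and in 1 or more lists 31 members (64.6%), against 65.4%.

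With the testis-type paralogs set aside, the pooled and replicate shares were above those of all protein-coding genes and the optimal share was below. Of the 32 core and regulatory genes, 22 (68.8%) had a pooled promoter entry, 18 (56.2%) had one in replicate 1, 22 (68.8%) in replicate 2 and 21 (65.6%) in replicate 3. Their optimal share was 6.25%, against the 14.1% of all genes. An entry in all 3 replicate lists was found at 10 of the 32 (31.2%), close to the 33.8% of all genes. The 3545 strongest entries of each replicate's own list held 3 of the 32 in replicate 1 (9.38%), 1 in replicate 2 (3.12%) and 4 in replicate 3 (12.5%), against 14.2% of all protein-coding genes in each, and held no testis-type gene. No member was among these strongest entries in all 3 replicates, where 8.69% of all protein-coding genes were.

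**Figure D1:**
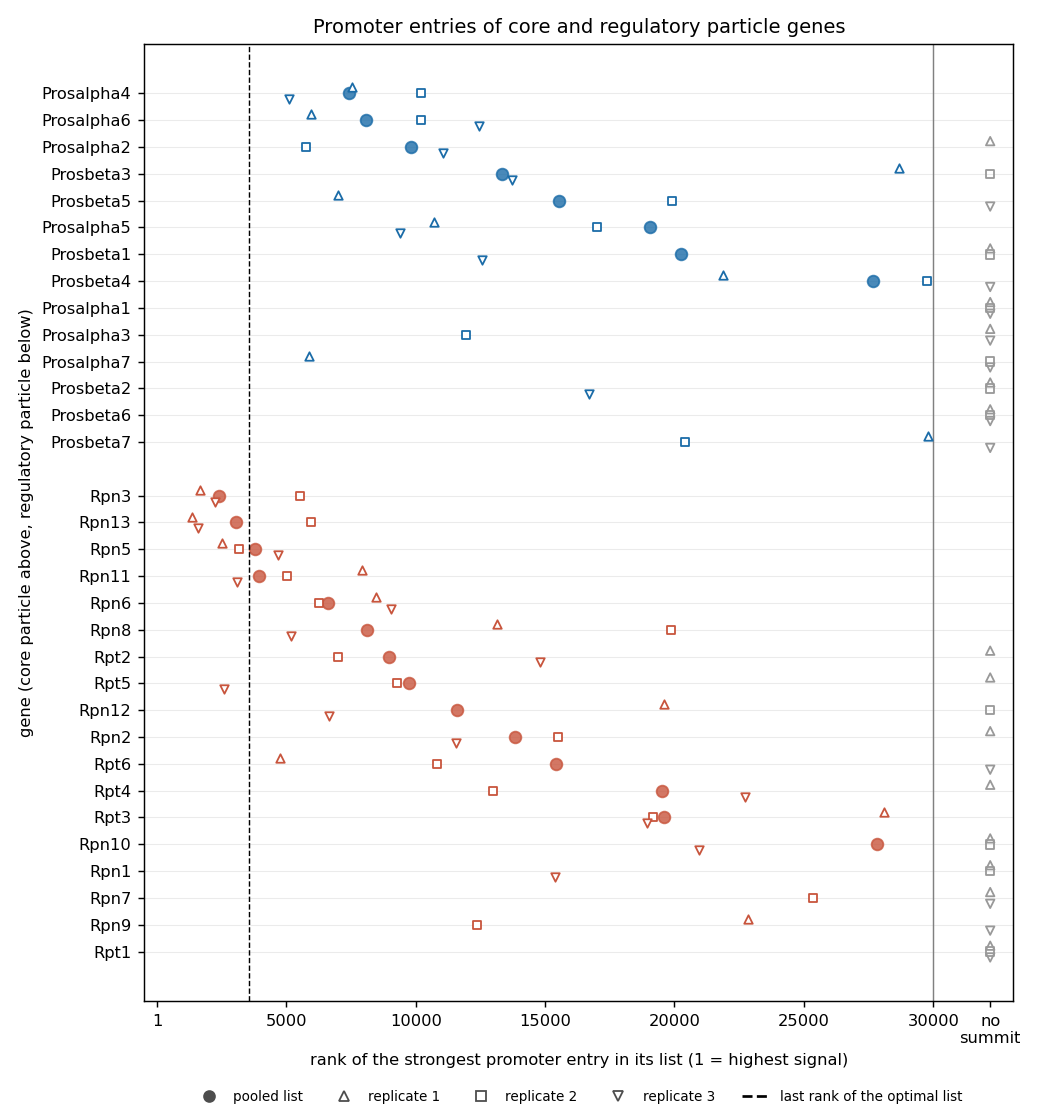
Rank of the strongest promoter entry (horizontal axis, 1 is the highest signal) of each core particle gene (blue, above) and regulatory particle gene (red, below) in the pooled list (filled circles) and in replicates 1, 2 and 3 (open symbols), with genes ordered by pooled rank. Grey symbols at the right edge are replicates with no summit within 500 bp, and only the pooled circles of Rpn3 and Rpn13 lie left of the dashed line at rank 3545, where the optimal list ends.

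Among entries in the pooled list the members had weaker ranks than genes in general. Their median pooled rank was 10691.5, against 7576 for all protein-coding genes with an entry. In the replicate lists the members' median was 8200.5 in replicate 1, 11387 in replicate 2 and 11072 in replicate 3, and that of all genes was 7366 in replicate 1, 7627 in replicate 2 and 7346 in replicate 3. The mean of these medians was 10219.8 ± 1760 for members and 7446.3 ± 157 for all genes (SD, n = 3 each), and the members' median was the weaker one in each replicate. Along the pooled list, 11 of the 22 members lay in ranks 1 to 10000 (50.0%), 8 in ranks 10001 to 20000 (36.4%) and 3 below (13.6%), against 60.0%, 26.1% and 13.9% of all genes with an entry. Of these 22 members, 10 (45.5%) had a promoter entry in all 3 replicate lists, 10 in 2 of them and 2 in 1, whereas 65.0% of all genes with a pooled entry had one in all 3.

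The lid of the regulatory particle held 4 of the 5 members with the best pooled ranks. Rpn3 (FBgn0261396), a structural subunit of the lid, had pooled rank 2379 and ranks 1645, 5511 and 2241 in replicates 1, 2 and 3. Its pooled entry (chr2L:19051504-19051939, dm6) had a signal of 141 and its summit 68 bp upstream of the TSS, inside the promoter repeat described above. Replicates 1 and 3 placed it among their 3545 strongest entries and replicate 2 did not. Rpn5 (FBgn0028690), another structural lid subunit, had pooled rank 3774 and ranks 2504, 3163 and 4659 (entry chr3R:5789146-5789581, signal 110, summit 129 bp upstream), and so stood just past the last optimal rank of 3545, where the signal was 114. Rpn11 (FBgn0028694), the deubiquitinase, had pooled rank 3932 and ranks 7925, 5030 and 3093 (entry chr2L:5059790-5060225, signal 107, summit 218 bp upstream). Replicate 3 alone had Rpn11 among its strongest entries. Rpn6 (FBgn0028689), which links lid and core, had pooled rank 6602 and ranks 8476, 6246 and 9034, with a signal of 80.2.

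The replicate ranks of these lid genes overlapped. Rpn3 averaged rank 3132.3 ± 2081.4, Rpn5 averaged 3442.0 ± 1104.3 and Rpn11 averaged 5349.3 ± 2431.8 (SD, n = 3 each), so their order lies within the spread between replicates. Rpn6 averaged 7918.7 ± 1475.2, and its 3 ranks were weaker than all those of Rpn3 and of Rpn5 but overlapped those of Rpn11. Rpn8, the partner of Rpn11 in the deubiquitinase pair, had pooled rank 8134 and ranks 13138, 19875 and 5169. The strongest replicate 2 entry that overlapped its pooled one had rank 10643, with its summit outside the 500 bp limit. Rpn12 had pooled rank 11577, ranks 19578 and 6630 in replicates 1 and 3, and no entry in replicate 2. Rpn7 and Rpn9, structural lid subunits, had no pooled promoter entry. Rpn7 had rank 25333 in replicate 2 alone, and Rpn9 had ranks 22855 and 12368 in replicates 1 and 2. Of the 8 lid genes, 6 had a pooled entry (75.0%), with a median rank of 5267, and 5 had an entry in all 3 replicate lists (62.5%). For all protein-coding genes the shares were 51.2% in the pooled list and 33.8% in all 3 replicate lists.

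The base had a pooled entry at 8 of 10 genes (80.0%, against 51.2% of all protein-coding genes), with a weaker median rank of 14627. Rpn13 (FBgn0033886), a ubiquitin receptor, was the exception, with pooled rank 3039 and ranks 1356, 5943 and 1590 (entry chr2R:13960488-13960923, signal 124, summit 302 bp upstream). Its ranks in replicates 1 and 3 were among the strongest 3545 and that in replicate 2 was not, as for Rpn3, and it averaged 2963.0 ± 2583.4 (SD, n = 3). The next of the base were ATPases: Rpt2 had pooled rank 8960, with its summit 462 bp upstream, and Rpt5 had 9733. Another pooled summit, 50 bp from the Rpt2 TSS, had rank 28238. Rpt5 was at rank 2580 in replicate 3, at 9265 in replicate 2 (a different entry from the pooled one) and absent from replicate 1. Rpt6 had pooled rank 15403 with ranks 4768 and 10820 in replicates 1 and 2, and Rpt4 and Rpt3 had pooled ranks 19524 and 19597. Rpt3 had a promoter entry in every replicate, at ranks 28109, 19176 and 18934, but that of replicate 1 did not overlap the pooled one. The pooled entries of Rpt2 and Rpt4 were overlapped by an entry in each replicate. The ranks were 10128, 20543 and 14806 for Rpt2 and 28449, 12983 and 22721 for Rpt4. In replicate 1 the summit lay outside the 500 bp limit for both genes, and in replicate 2 it did for Rpt2. The replicate 2 promoter entry of Rpt2 was a different one, at rank 6987 with its summit 50 bp downstream. Rpn2, a scaffold of the base, had pooled rank 13851, and Rpn10, another ubiquitin receptor, had 27811 with an entry in replicate 3 alone (rank 20943). Rpt1 had no promoter entry in any list, and Rpn1, the large scaffold that receives ubiquitin shuttles, had one in replicate 3 alone (rank 15366). Base genes were found at 3 of 10 in replicate 1, 7 in replicate 2 and 8 in replicate 3, so the replicates differed most in this group.

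No core particle gene had an optimal promoter entry, and none was among the strongest 3545 entries of any replicate. Of all protein-coding genes 14.1% had an optimal promoter entry, and 14.2% were among the strongest entries of each replicate. In the alpha ring, which forms the gate, 4 of 7 genes had a pooled entry (57.1%, against 51.2% of all protein-coding genes). Their median rank was 8951.5. Prosalpha4 (FBgn0004066) had the best of them, with pooled rank 7416 and ranks 7550, 10200 and 5120 (entry chrX:16275688-16276123, signal 74.7, summit 364 bp upstream). Prosalpha6 had pooled rank 8097 with ranks 5962, 10210 and 12457, and Prosalpha5 had 19047 with ranks 10689, 17018 and 9390. The ranks of Prosalpha4 averaged 7623.3 ± 2540.8 and those of Prosalpha6 averaged 9543.0 ± 3298.5 (SD, n = 3 each), which overlap. Prosalpha2 had pooled rank 9806 with ranks 5766 and 11072 in replicates 2 and 3 and no entry in replicate 1. Prosalpha3 had an entry in replicate 2 alone (rank 11954) and Prosalpha7 in replicate 1 alone (rank 5892).

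The beta ring had the same count, 4 of 7, at weaker ranks, with a median of 17889. It had no gene with a summit within 500 bp in all 3 replicate lists. For all protein-coding genes the shares were 51.2% in the pooled list and 33.8% in all 3 replicate lists. Among the genes of the proteolytic subunits, Prosbeta5 had pooled rank 15545 with ranks 7010 and 19917 in replicates 1 and 2, Prosbeta1 had 20233 with rank 12553 in replicate 3 alone, and Prosbeta2 had no pooled entry and rank 16679 in replicate 3. Of the others, Prosbeta3 had pooled rank 13347 and Prosbeta4 had 27686. The pooled entry of Prosbeta3 was overlapped by an entry in each replicate, at ranks 28684, 11765 and 13718, of which that in replicate 2 had its summit outside the 500 bp limit. Prosbeta7 had no pooled entry and weak ranks of 29797 and 20403 in replicates 1 and 2. Prosbeta6 had none in any list. By rank, the genes of the proteolytic subunits and the others of the ring were interleaved.

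Core and regulatory genes are set side by side next. In the pooled list the counts were 8 of 14 (57.1%) for the core and 14 of 18 (77.8%) for the regulatory particle. The difference was -20.6 percentage points (core minus regulatory), and the share of all protein-coding genes was 51.2%. In replicate 1 the difference was 1.6 points, in replicate 2 it was -20.6 and in replicate 3 it was -27.8, with an SD of 15.3 between replicates. The median pooled rank was 14446 for the core and 9346.5 for the regulatory particle, against 7576 for all protein-coding genes with an entry. In the replicate lists the core's median was 9119.5, 14486 and 12457 and the regulatory particle's was 8200.5, 10042.5 and 7832, weaker for the core in each of replicates 1, 2 and 3. An entry in all 3 replicates was found at 3 core genes (21.4%) and 7 regulatory genes (38.9%), against 33.8% of all protein-coding genes. The difference in pooled shares was -38.1 points with a window of 250 bp, -6.3 with 1000 bp or with any base of the peak in the window, and -9.5 with the outermost TSS only. No test was made, and 1 replicate turns the direction of the difference in shares.

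**Figure D2:**
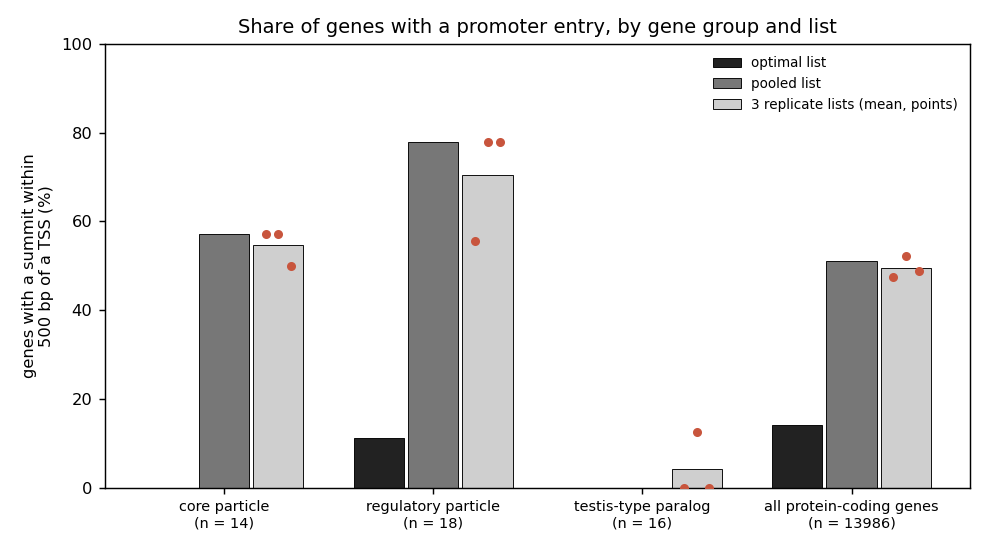
Percentage of genes (vertical axis) with a summit within 500 bp of a TSS in the optimal list (black), the pooled list (dark grey) and the replicate lists (light grey, mean, with replicates 1, 2 and 3 as points from left to right), for 14 core particle, 18 regulatory particle and 16 testis-type genes and 13986 protein-coding genes. The testis-type genes have no bar for the optimal or pooled list, and the regulatory particle genes have the tallest pooled bar at 77.8%.

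None of the 16 testis-type paralogs had a pooled promoter entry, while 9 of the 12 constitutive genes they pair with did (75.0%). The share of all protein-coding genes was 51.2%. In the replicate lists, replicate 2 alone held 2 of the 16, Prosbeta2R2 at rank 5893 with its summit 252 bp upstream and Prosalpha3T at rank 21147 with its summit 266 bp downstream, and replicates 1 and 3 held none. The distance from a testis-type TSS to the nearest pooled summit was 552 to 11011 bp, with a median of 4323.5 bp. Core genes without a pooled promoter entry lay 623 to 3281 bp from one (median 1776 bp) and regulatory genes 1410 to 2646 bp (median 1882 bp). Just inside the 500 bp limit were Prosbeta4 at 494 bp and Prosbeta3 at 465 bp, and just outside it were Rpt6R at 552 bp, Prosbeta6 at 623 bp, Prosalpha4T2 at 650 bp and Prosalpha3 at 671 bp. Constitutive genes without a testis-type paralog had a pooled entry at 13 of 20 (65.0%).

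Prosalpha1 and its paralog Prosalpha1R, tandem neighbours on the minus strand of arm 2R, had no promoter entry in any of the 5 lists. The gene spans (7827303 to 7828678 for Prosalpha1 and 7830413 to 7831771 for Prosalpha1R) were 98.8% identical by global alignment, and their promoters were 89.3% identical. Across the other 19 pairs of testis-type paralogs with their constitutive gene or with each other, gene spans were 38.4% to 69.4% identical and promoters 42.6% to 53.9%. Reads from so similar a pair may match both places. How the authors treated such reads was not given in the sources used here, and the part this plays in the missing entries was not tested.

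Most member entries were upstream of the TSS, with regulatory genes giving 12 of the 16. Of the 22 pooled summits 16 were upstream (72.7%), with a median position of -108 bp, against 63.3% and -70 bp for all protein-coding genes. The split was 4 of 8 upstream for the core, with a median of -17.5 bp, and 12 of 14 (85.7%) for the regulatory particle, with a median of -144 bp. Core summits were upstream in 4 of 8 cases in replicate 1, 4 of 8 in replicate 2 and 1 of 7 in replicate 3, and regulatory summits in 8 of 10, 9 of 14 and 11 of 14 in the same order. Over all members the upstream count was 12 of 18 in replicate 1 (66.7%, against 63.8% of all genes), 14 of 24 in replicate 2 (58.3%, against 62.8%) and 12 of 21 in replicate 3 (57.1%, against 61.7%). The members' upstream share was thus above that of all genes in the pooled list and replicate 1 and below it in replicates 2 and 3. Within 100 bp of the TSS lay 6 of the 22 strongest summits (27.3%), against 35.9% for all genes. By the annotation 6 of the 22 summits fell between genes, 8 in exons outside coding sequence, 4 in coding exons and 4 in introns.

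**Figure D3:**
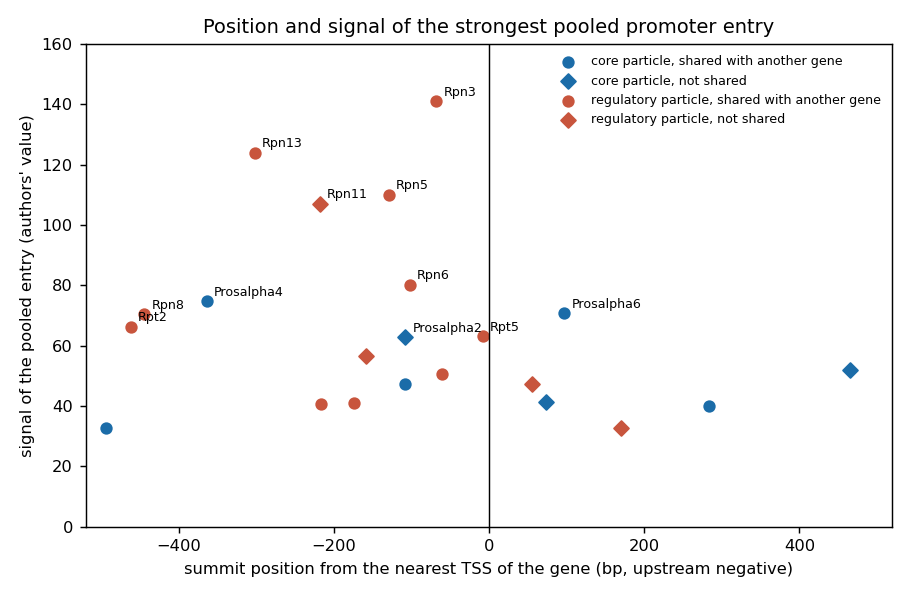
Position of the strongest pooled promoter summit from the nearest TSS of the gene (horizontal axis, bp, upstream negative) and the authors' signal for it (vertical axis), for 8 core particle genes (blue) and 14 regulatory particle genes (red). Circles are entries that also lie within 500 bp of another gene's TSS and diamonds those that do not, and the 5 entries of highest signal are all upstream and belong to regulatory genes.

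Many of these entries cannot be given to the proteasome gene alone. Of the 22 pooled entries 15 (68.2%) also lay within 500 bp of the TSS of another annotated gene of any type. The share was 41.4% for all protein-coding genes with an entry. In 9 of the 15 the other gene's TSS was the nearer. The entry of Rpn13 was 302 bp from its TSS and 31 bp from that of CtsL1, a cathepsin gene. The entry of Rpn5 was 129 bp from its TSS and 20 bp from that of Hat1, a histone acetyltransferase gene, and that of Prosalpha4 was 364 bp from its TSS and 11 bp from that of kat80, which encodes a katanin subunit. Rpn3 was the nearer gene for its entry, at 68 bp against 110 bp for l(2)37Bb, and so was Rpn6, at 102 bp against 148 bp for ave. The entry of Rpn11 was shared with no other gene. The entries of Rpn6 and Rpn8 lay near an inner TSS of the gene and not near its outermost one. Rpn3 was thus the only one of the optimal pair whose own TSS was the nearest.

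Most core and regulatory genes start close to another gene. Another gene's TSS lay within 500 bp of a TSS of 21 of the 32 core and regulatory genes (65.6%) and of 3 of the 16 testis-type genes (18.8%), against 34.4% of all protein-coding genes, and each of these 24 members had one on the opposite strand. With such a neighbour 16 of 21 core and regulatory genes had a pooled entry (76.2%), and without one 6 of 11 did (54.5%). For all protein-coding genes the shares were 67.5% with a neighbour and 42.6% without, so the neighbour and the entry went together in both sets. The part of the neighbours in the members' shares was not tested.

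The DRE was common in core and regulatory promoters, and those with it had a pooled entry less often, by small untested counts. It was found in 12 of 32 (37.5%), 6 of the core and 6 of the regulatory particle, in none of the 16 testis-type promoters, and in 9.36% of 13945 promoters of all protein-coding genes in the same window. Of the 12, 7 had a pooled entry and Prosalpha3, Prosbeta2, Prosbeta6, Rpn7 and Rpn9 had none, while 15 of the 20 without a DRE had one. For all genes the direction was the other way, with a pooled entry at 70.7% of genes with a DRE and 49.3% of those without. The shorter ATCGATA, which the DRE contains, was in 17 member promoters, 6 of the core and 11 of the regulatory particle, against 18.2% of all promoters. Within 100 bp of the 22 pooled summits the DRE was found at Rpn12, Rpn13 and Rpt5 (13.6%), against 3.23% of 9079 summits at protein-coding promoters. In Rpt5, whose promoter is printed above, the DRE lay 38 bp from the summit. A match describes the letters and is no evidence of a bound factor.

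The other motifs in the same window were counted over all 48 members, with the share of all promoters in brackets. TGANNNNGC on both strands was in 14 of 48 members (35.6%) and its stricter form TGACNNNGC in 6 (8.63%). GGTCACACT, the element of M1BP, a factor of housekeeping promoters, was in 5 members (6.05%), CATCTCTA in 2 (2.55%) and the E-box CACGTG in none (4.2%). GAGAGAG was in 2, the testis-type genes Prosbeta2R2 and Rpt4R (5.87%). On the gene's strand TATAAA was in 13 (32.1%), TCAGT in 18 (36.1%) and CTTTTC in 9 (14.4%). Over the 32 core and regulatory promoters alone, the shares were 31.2% for TGANNNNGC, 15.6% for TGACNNNGC, 15.6% for GGTCACACT and 6.25% for CATCTCTA. They were 28.1% for TATAAA, 40.6% for TCAGT and 21.9% for CTTTTC, and CACGTG and GAGAGAG had no match. The window of Rpt5 overlaps the promoter of RanBP3, and the windows of other divergent pairs overlap likewise, so a match need not belong to the proteasome gene.

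Among genes that work with the proteasome, Pomp, Ubqn and cnc had an optimal promoter entry. Of 17 listed partner genes 16 were matched, among them assembly factors, regulators, shuttles, deubiquitinases and the transcription factor gene cnc. Of the 16, 3 had an optimal promoter entry (18.8%, against 14.1% of all protein-coding genes) and 13 a pooled one (81.2%, against 51.2%). Their median pooled rank was 7773, against 7576 for all genes with an entry. Pomp, the assembly factor of the core particle, had pooled rank 1170 and ranks 1556, 1305 and 1198 in replicates 1, 2 and 3. The gene cnc, which encodes the Nrf family factor, had pooled rank 2992 and ranks 1740, 1868 and 1474. Both were thus among the strongest 3545 entries of every replicate, as no subunit gene was. Ubqn, a ubiquitin shuttle, had pooled rank 1798 with ranks 3569 and 9842 in replicates 1 and 3 and no entry in replicate 2. TER94, the p97 ATPase that unfolds ubiquitinated proteins, was next with pooled rank 6202. Sem1, Usp14 and CG8858 had no pooled promoter entry. The pooled summits stood at -251 bp for Pomp, -452 bp for Ubqn and -73 bp for cnc (upstream negative). Whether another gene's TSS lay nearer to the partner genes' entries was not examined.

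Of 36 genes of ubiquitin and of its transfer to proteins, 4 had an optimal promoter entry (11.1%, against 14.1% of all protein-coding genes) and 32 a pooled one (88.9%, against 51.2%). Their median pooled rank was 7024, against 7576. RpS27A, which encodes ubiquitin fused to a ribosomal protein, had pooled rank 1006 with ranks 1914, 1022 and 711. The ubiquitin-conjugating enzyme gene eff had 1279 with ranks 1275, 754 and 3937, and the ligase gene Nedd4 had 1327 with ranks 1338, 1353 and 1044. Ubi-p5E, a polyubiquitin gene, had 3445 with ranks 3476, 3705 and 3639, inside the optimal list by 100 ranks. Ubc7, Cul4, Roc1b and fzy had no pooled entry. The optimal share was 4.17% for the 48 subunit genes and 6.25% for the 32 core and regulatory genes among them, and no difference between the lists was tested.

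**Figure D4:**
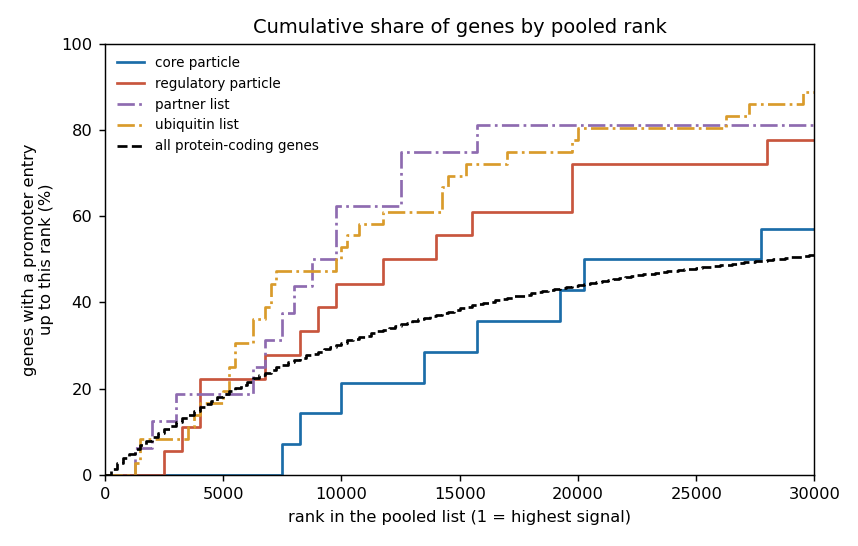
Cumulative percentage of genes (vertical axis) with a promoter entry up to a given rank of the pooled list (horizontal axis, 1 is the highest signal) for core particle genes (blue), regulatory particle genes (red), the 16 partner genes (purple), the 36 ubiquitin pathway genes (yellow) and all protein-coding genes (black, dashed). The core particle line stays at 0 up to rank 7416 and ends at 57.1%, and the regulatory particle line ends at 77.8%, against 51.2% for all protein-coding genes.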

How the data were processed

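ChIP-seq with an antibody to GFP was done on 3 biological replicates of whole embryos, which form 1 group, and the labels do not say how their embryos were collected apart. No p-value was computed. The sonicated fragments were 200 to 800 bp long, per the labels. The authors deposited peak lists in narrowPeak layout. Per the submitters' file list, a replicate list came from the reads of that replicate set against 1 control file, the pooled list came from all 3 replicates together, and IDR on these lists gave the optimal list. Signal in the deposited lists is what the authors' caller wrote for an entry, with no unit stated, and it served only to rank entries within a list. The −log10 q-value column of the deposited lists was used only as another ranking. Aligner, caller and threshold for IDR are not given in the sources used here. Depth is unknown, since no alignment or coverage was analysed, and no counting interval could be given. The lists on dm3 were not used here.

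Coordinates are dm6, counted from 1. TSSs came from Ensembl release 115 of the same assembly, with transposable elements left out. A summit within 500 bp of any TSS of a gene gave it a promoter entry. In the optimal and pooled lists 1 summit past the end of its peak was set to the last base. A gene's rank is that of its strongest promoter entry, which can be a different entry in different lists. Promoter letters ran from 250 bp before to 50 bp from the outermost TSS. Every member is accounted for; those named in full were members with an optimal entry, the 6 best pooled ranks, and core or regulatory genes with no pooled entry, and of the partner and ubiquitin lists the best 4 each. The members and lists were chosen with earlier results of these data known, so shares are given beside those of all protein-coding genes with no test. PA200 of the partner list had no match by symbol. Alternatives were other windows, the outermost TSS, any base of the peak, stronger parts of the lists, other rankings, and each replicate left out. The search functions were tested on simulated summits. Computation used Python 3.11.15, numpy 2.4.6, pandas 2.3.3, Biopython 1.88 for alignments and matplotlib 3.10.9.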

Additional observations from a re-analysis of the deposited data

How the results depend on the processing

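Across 12 results and 75 alternatives, 44 values stayed near the main one, 30 moved and 1 changed direction. The optimal list held 2 members, 1 with a window of 100 or 250 bp (Rpn3) and 0 in the stronger 50% of the list, and the partner list's 3 became 1 in each of these settings. The pooled count of 22 became 7 at 100 bp and 14 in the stronger 50% of the pooled list. The count in every replicate list, 10, became 1 at 100 bp, 4 at 250 bp and 0 among the strongest entries, and 12 to 15 with 1 replicate left out. Core genes numbered 2 and 4 at 100 and 250 bp, against 8, and regulatory genes 5 at 100 bp, against 14. Testis-type paralogs numbered 2 at 1000 bp, or with any base of the peak in the window, against 0. The median rank of 10691.5 became 13851, 12714 and 13599 at 100, 250 and 1000 bp. It was 12462 with the outermost TSS and 8200.5 in replicate 1. With 1 replicate left out, the mean rank in the other lists was taken for members with an entry in each of them. The median of that mean was 8419 to 8954.2, which is not a pooled rank and covers fewer members. The median position of -108 bp became -8, -85 and -144 bp at 100, 250 and 1000 bp, and -77.5, -71.5 and -83 bp in replicates 1, 2 and 3. The difference of core minus regulatory genes, -20.6 points, was -38.1 at 250 bp, -6.3 at 1000 bp or with any base of the peak, and -9.5 with the outermost TSS, and turned to 1.6 in replicate 1. Narrower or wider windows, the outermost TSS, list cuts and leaving out a replicate change which entries can count by construction. The cause of the other moves was not tested. The alternatives for core minus regulatory genes, and for the DRE at any TSS (13 members), were chosen after seeing the data. No paired analysis was possible because there is 1 group. Shared promoters, unknown depth and lists of fixed length limit each count.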
